A study of Mus musculus with 3 samples.

Results

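The cytosolic ribosomal protein genes encode the protein part of the ribosome outside mitochondria. They were chosen by gene symbol alone: the letters Rpl or Rps with a number, also with a closing a or x, together with the stalk genes Rplp0 to Rplp2 and Rpsa. This gave 76 of the 24054 genes of the table, 43 of the large subunit, 30 of the small subunit and 3 of the stalk. The symbol rule leaves out genes that encode ribosomal proteins under other names, and of these Rps3a1 and Fau are described apart from the 76. The material was primary cortical neurons, cells grown in culture from the brain of embryonic day 17 mice of the strain C57BL/6, and RNA was taken after 7 days of growth and the treatment. One culture condition stayed at 21% oxygen (control), another was held at 0.2% oxygen for 7 hours without T3 (hypoxia), and a further one was held at 0.2% oxygen for 7 hours with 5 nM T3 (hypoxia with T3). T3, triiodothyronine, is the active thyroid hormone and acts through nuclear receptors. What hormone or serum the control medium held, and how many embryos or dishes were pooled, is not given in the labels. Each of the 3 groups has 1 library, so no difference has a replicate check, and none was tested against variation between cultures.

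A ribosome contains each ribosomal protein in near-equal number, and the cell makes these proteins in balance with the ribosomal RNA transcribed by RNA polymerase I. Most of their mRNAs begin with a C followed by an uninterrupted stretch of C and U, the terminal oligopyrimidine (TOP) motif, through which the mTORC1 kinase and the protein LARP1 control their translation and stability. In neurons the mRNAs are abundant in the cell body and are also found in axons and dendrites, where some of the proteins are made locally, and oxygen shortage is known to lower translation through mTORC1.

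The deposited values are read counts scaled to 1000000 of a normalised library size (CPM). Whole reads could be recovered from them, 18081904 in the control library, 17118865 in the hypoxia library and 22533574 in the library of hypoxia with T3. Where 3 values follow each other below, they are those of control, hypoxia and hypoxia with T3 in that order. Neuron markers were high in every library, with summed levels over 14 genes of 8244, 8697 and 8755 CPM. The 9 microglia markers summed to 3.52, 3.37 and 3.95 CPM and the 9 endothelial and mural markers to 4.08, 3.26 and 3.36 CPM. Only 1 of the 9 microglia markers and 1 of the 9 endothelial and mural markers reached a mean of 1 CPM. Most of these markers were thus near the counting floor. The microglia marker Tmem119 and the endothelial marker Cldn5 had 0 reads in both hypoxic libraries and 1 read in control. The microglia marker Aif1 went the other way, with 1, 2 and 4 reads. The 9 astrocyte markers summed to 553, 585 and 597 CPM. The 9 oligodendrocyte lineage markers summed to 347, 202 and 204 CPM, and the 9 cycling progenitor markers to 284, 247 and 268 CPM. At least 1.5-fold lower in hypoxia than in control were 4 of 9 oligodendrocyte lineage markers and 3 of 9 cycling progenitor markers. Of the 8 astrocyte markers compared it was 0, and of all genes compared 13.8%. The part of these cell types in the results below was not tested. In bulk RNA, a change in the number of cells of a type and a change in RNA per cell cannot be told apart.

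All 76 genes were well measured, with 1124 to 10111 reads in control, 1643 to 14381 after hypoxia alone and 2138 to 17761 after hypoxia with T3. Their levels ran from 52.1 to 469 CPM in control (median 141), from 90.7 to 794 CPM after hypoxia alone (median 227) and from 90.9 to 755 CPM after hypoxia with T3 (median 223). The control library was the lowest of the 3 for every one of the 76 genes, and the hypoxia library was the highest for 55 of them. Their joint share of the reads was 1.51% in control (95% interval 1.505 to 1.516), 2.16% after hypoxia alone (2.153 to 2.167) and 2.10% after hypoxia with T3 (2.093 to 2.105). All intervals here are exact Clopper-Pearson intervals and cover counting error only, not variation between cultures. Without molecular identifiers several reads can stem from the same molecule, so the intervals may be too narrow even for counting error.

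Per kilobase of annotated transcript, the mean level over the 3 libraries spread from 35.3 to 789 CPM per kb with a median of 259 CPM per kb. Highest was Rpl41, a very short basic peptide that bridges the subunits, with 789 CPM per kb. It was followed by Rps2, which lines the mRNA entry channel, with 674 CPM per kb, the stalk gene Rplp1 with 596, Rpl23a, which sits at the exit of the nascent peptide tunnel, with 502, and Rps29, a zinc-binding protein of the small subunit head, with 462 CPM per kb. Lowest were Rps15a with 35.3 CPM per kb and Rps20 with 39.9 CPM per kb, whose annotated transcripts of 5179 and 3706 bases are long for this family. Next above these were Rpl22, an RNA-binding protein that ribosomes can do without, with 97.1 CPM per kb, Rpl31, a tunnel exit protein, with 113, and Rpl37 with 128 CPM per kb. The level per kb depends on which transcript is taken as the principal one.

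**Figure D1:**
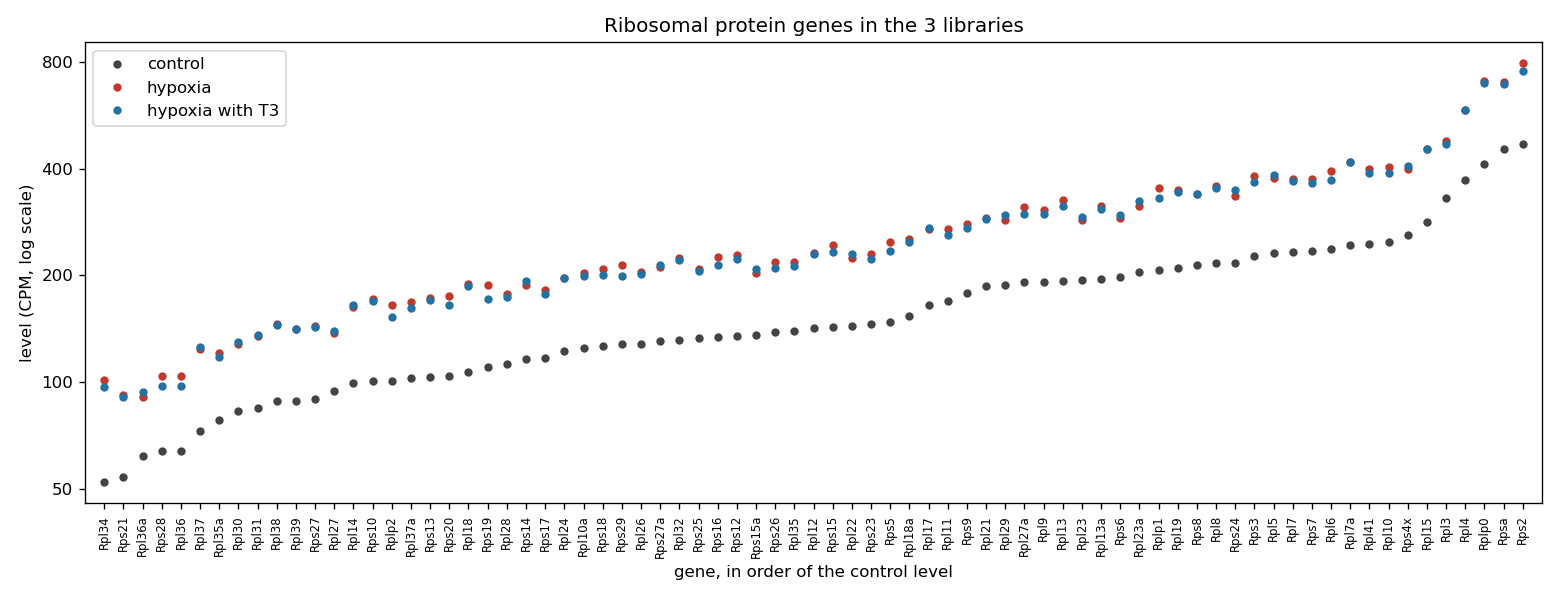
Level of 75 of the 76 genes (CPM, log axis) in the control, hypoxia and hypoxia with T3 libraries, 1 point per gene and library, with 1 library per group and no error over cultures. The control point of each gene lies below both hypoxic points, which nearly coincide.

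The comparison of hypoxia with control addresses how the neurons' transcripts differ after 7 hours at 0.2% oxygen. The ribosomal protein genes were higher in hypoxia as a group and by nearly the same factor. Their summed CPM was 1.61-fold higher (1.61 to 1.62), the single genes lay between 1.45-fold and 1.94-fold, and the interval of each of the 76 lay above 1. The CPM of all genes summed to 837997 in control and 945496 in hypoxia, so the joint share of reads differed by a smaller factor than the CPM. On log2 ratios of CPM with 1 CPM added, 70 of 76 were at least 1.5-fold higher and 0 were lower, against 8.46% of all 12692 genes compared that were at least 1.5-fold higher and 13.8% at least 1.5-fold lower. At the stricter 2-fold rule 0 of 76 were called, against 1.99% of all genes higher and 4.92% lower. The median log2 ratio was 0.69 over the 76 genes and 0.05 over all genes compared.

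The ratios of the 76 genes lay close to each other. The middle 50% of the 76 log2 ratios spanned 0.09, from 0.65 to 0.73, against 0.65 for all genes compared. All genes compared include longer genes and genes at lower levels. For 444 other genes under 10 kb with a mean level in the range of the 76, the middle 50% ran from 0.33 to 0.64. The standard deviation of the 76 ratios was 0.07 on the log2 scale. The intervals of 53 genes held the pooled factor of the group, those of 11 lay above it and those of 12 below it. The size of the factor moves with the scaling of the libraries. With the 3 libraries scaled to the same sum, the all-gene median moved from 0.05 to -0.10, the ribosomal protein median to 0.52, and 11 of 76 genes were at least 1.5-fold higher, against 4.01% of all genes under that scaling. All 76 ratios were above 0 there as well. Of all genes called at 1.5-fold in either direction, 38.0% were higher as deposited, 17.3% with equal sums and 26.2% with normalisation factors computed anew.

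**Figure D2:**
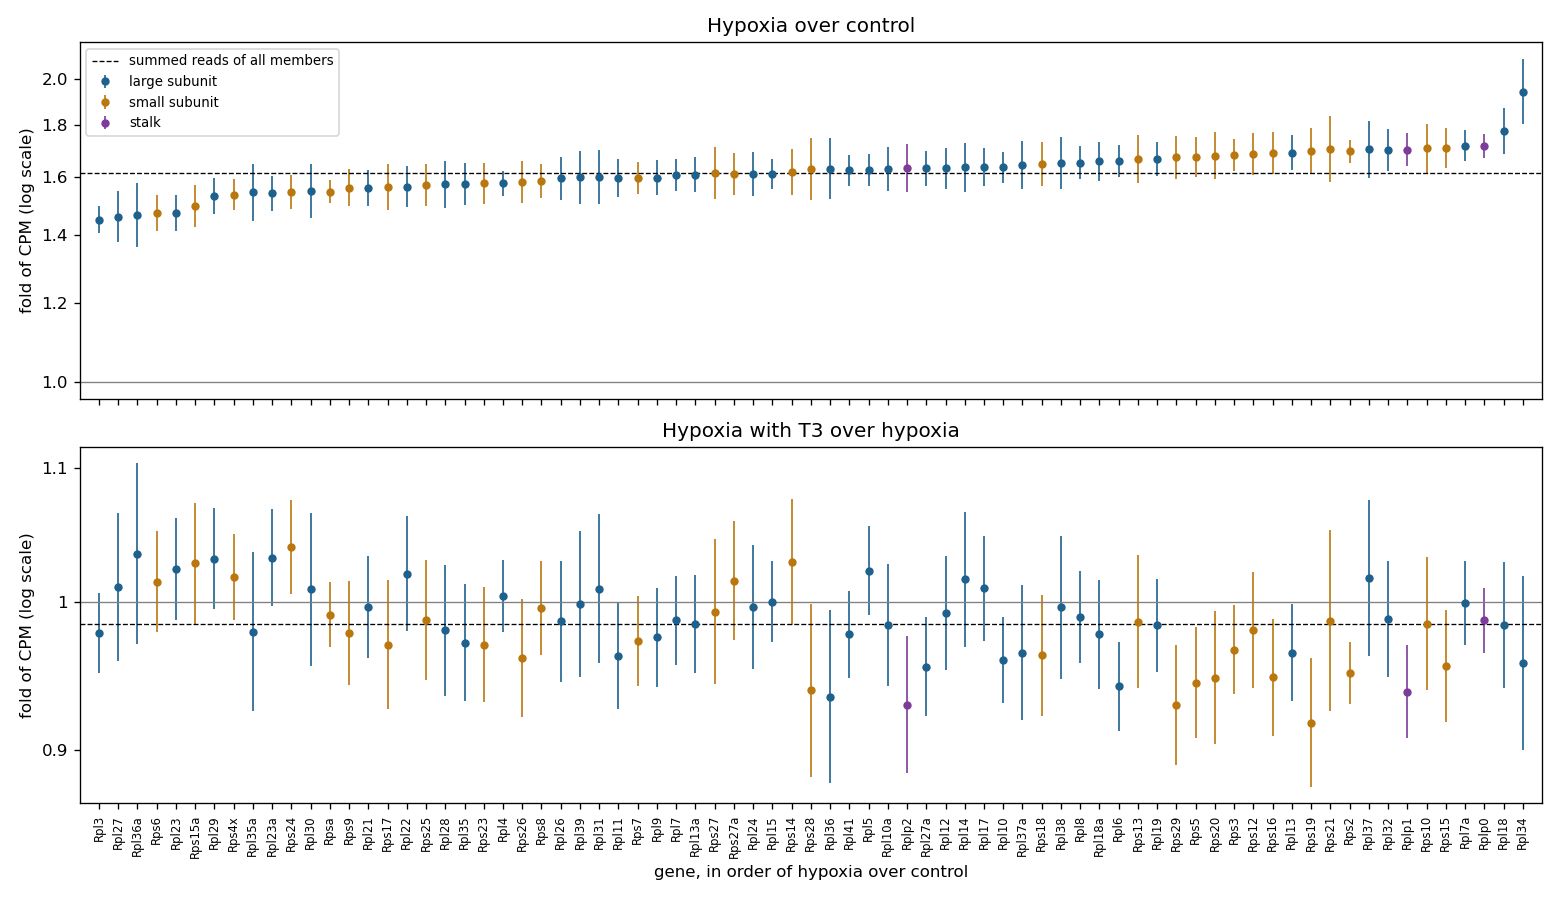
Fold of CPM for 75 of the 76 genes, hypoxia over control and hypoxia with T3 over hypoxia. Points are genes coloured by subunit, and bars are exact 95% intervals of counting error (1 library per group). The dashed line is the fold of the summed CPM of all 76. All hypoxia over control folds lie between 1.45 and 1.94, and the hypoxia with T3 over hypoxia folds lie between 0.918 and 1.04.

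The 3 stalk proteins form the flexible arm of the large subunit that recruits elongation factors. Rplp0, the base of the stalk, was at 413, 710 and 701 CPM. Rplp1 was at 207, 353 and 331 CPM and its partner Rplp2 at 101, 165 and 153 CPM. For each of the 3, control was the low library and the 2 hypoxic libraries were close to each other. Hypoxia was 1.72-fold above control for Rplp0 (1.67 to 1.76), 1.70-fold for Rplp1 (1.64 to 1.77) and 1.63-fold for Rplp2 (1.54 to 1.73). The pooled stalk factor was 1.70 (1.67 to 1.74), that of the large subunit 1.61 (1.60 to 1.62) and that of the small subunit 1.61 (1.60 to 1.62).

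Among large subunit genes, Rpl34 had the highest ratio of the 76, with 52.1, 101 and 97.0 CPM, and was 1.94-fold higher in hypoxia (1.80 to 2.10). It is also the gene with the lowest control level. Rpl18 was at 107, 190 and 187 CPM, 1.78-fold higher in hypoxia (1.68 to 1.87). Rpl7a was at 243, 418 and 418 CPM, a ratio of 1.72 (1.66 to 1.78). Rpl32 was at 131, 223 and 221 CPM, a ratio of 1.70 (1.62 to 1.79). In these 4 genes the hypoxic libraries were close to each other and well above control.

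The lowest ratio of the 76 belonged to Rpl3, a protein next to the peptidyl transferase centre, at 331, 480 and 469 CPM and 1.45-fold higher in hypoxia (1.41 to 1.5). Rpl27 was at 94.1, 137 and 139 CPM with a ratio of 1.46 (1.38 to 1.55), and Rpl36a, which contacts the tRNA exit site, at 61.9, 90.7 and 93.9 CPM with a ratio of 1.47 (1.36 to 1.58). Rpl23, a subunit interface protein that can also bind the p53 regulator Mdm2, was at 194, 286 and 293 CPM with a ratio of 1.47 (1.41 to 1.54). Rpl29 was at 188, 287 and 296 CPM with a ratio of 1.53 (1.47 to 1.59). Even these lowest members stood well above control in both hypoxic libraries. The 8 proteins around the peptide tunnel exit had a median log2 ratio of 0.67, between 0.62 and 0.73.

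Rpl5 and Rpl11 carry the 5S ribosomal RNA into the large subunit and, when ribosome assembly stalls, bind Mdm2. Rpl5 was at 232, 376 and 385 CPM, 1.63-fold higher in hypoxia (1.57 to 1.69), and Rpl11 at 169, 270 and 260 CPM, 1.60-fold higher (1.53 to 1.67). Rpl10a and Rpl38 are known for their weight in the translation of particular mRNAs, Rpl38 for that of Hox genes. Rpl10a was at 124, 203 and 199 CPM with a ratio of 1.63 (1.55 to 1.71), and Rpl38 at 88.1, 146 and 145 CPM with a ratio of 1.65 (1.56 to 1.75). Rpl22 was at 144, 225 and 229 CPM with a ratio of 1.56 (1.49 to 1.64). These 5 genes lay inside the range of the group, with control lowest each time.

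Among small subunit genes, Rps15 and Rps10, both in the head of the subunit, had the highest ratios. Rps15 was at 143, 244 and 233 CPM, 1.71-fold higher in hypoxia (1.63 to 1.79), and Rps10 at 101, 172 and 169 CPM, 1.71-fold higher (1.62 to 1.80). The 14 proteins of the head had a median log2 ratio of 0.74, from 0.64 to 0.77, beside 0.69 for all 30 small subunit genes. At least 1.5-fold higher were 14 of 14, near the 28 of all 30 small subunit genes, against 8.46% of all genes compared. For hypoxia with T3 over control, both the head and all 30 small subunit genes had a median of 0.66. Rps2 was the most abundant of the 76 by CPM, at 469, 794 and 755 CPM with a ratio of 1.70 (1.65 to 1.74). Rpsa, which also serves as a laminin receptor, was second by CPM in control, at 455, 703 and 697 CPM with a ratio of 1.55 (1.51 to 1.59).

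Rps6, the substrate of the S6 kinases and a usual readout of mTORC1 activity, had the lowest ratio of the small subunit, at 198, 291 and 296 CPM and 1.47-fold higher in hypoxia (1.41 to 1.53). Rps15a was at 136, 203 and 209 CPM with a ratio of 1.5 (1.43 to 1.57). On values with 1 CPM added, Rps6 and Rps15a are among the 6 members that fell short of 1.5-fold, the others being Rpl3, Rpl27, Rpl36a and Rpl23. Rps27a, made as a fusion to ubiquitin, was at 131, 211 and 214 CPM with a ratio of 1.61 (1.53 to 1.69). The X-linked Rps4x was at 260, 400 and 407 CPM with a ratio of 1.54 (1.48 to 1.59), and Rps25, which several viral and cellular internal ribosome entry sites need, at 133, 209 and 206 CPM with a ratio of 1.57 (1.49 to 1.65). Of 17 genes mutated in Diamond-Blackfan anaemia, a red cell aplasia, 15 were at least 1.5-fold higher (88.2%), with a median log2 ratio of 0.67. This was near the 92.1% and the median of 0.69 of all 76, against 8.46% of all genes compared. Rps19, the gene most often mutated in it, was at 111, 187 and 172 CPM, 1.69-fold higher in hypoxia (1.61 to 1.79).

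Promoters are shown for genes with an entry in the RefSeq promoter table. These genes are the 4 with the highest and the 4 with the lowest hypoxia over control ratios among those with an entry. Each window holds the 40 bases before the RefSeq transcription start and the 25 bases from that start. Bases run 5′ to 3′ on the transcribed strand in GRCm38.p6, with the longest run of C and T in capitals. The first 4 genes are those with high ratios, at chr3:130730374-130730438 (minus strand), chr7:45718031-45718095 (plus), chr5:115559427-115559491 (plus) and chr2:26910767-26910831 (plus). The last 4 are those with low ratios, at chr11:97782415-97782479 (minus), chr4:86857343-86857407 (minus), chrX:134585614-134585678 (plus) and chr11:101442205-101442269 (plus).
Rpl34: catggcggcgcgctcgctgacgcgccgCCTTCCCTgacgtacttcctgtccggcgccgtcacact
Rpl18: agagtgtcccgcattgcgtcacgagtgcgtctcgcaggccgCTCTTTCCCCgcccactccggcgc
Rplp0: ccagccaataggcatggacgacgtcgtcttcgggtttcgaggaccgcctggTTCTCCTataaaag
Rpl7a: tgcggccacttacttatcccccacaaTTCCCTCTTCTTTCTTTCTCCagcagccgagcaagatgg
Rpl23: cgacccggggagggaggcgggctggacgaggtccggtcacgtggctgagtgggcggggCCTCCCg
Rps6: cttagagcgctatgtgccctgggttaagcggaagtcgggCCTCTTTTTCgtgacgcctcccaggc
Rpl36a: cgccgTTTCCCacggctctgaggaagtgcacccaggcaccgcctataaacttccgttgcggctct
Rpl27: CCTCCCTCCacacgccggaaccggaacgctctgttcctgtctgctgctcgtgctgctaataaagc

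The longest run was 8 bases in Rpl34, 10 in Rpl18, 7 in Rplp0 and 21 in Rpl7a, and 6 in Rpl23, 10 in Rps6, 6 in Rpl36a and 9 in Rpl27. In Rpl7a and Rps6 the run spans the RefSeq start. RefSeq promoters were matched by symbol for 56 of the 76 genes, and 41 of these starts lay within 50 bases of the GENCODE start of the same gene. The longest distance was 575 bases. By GENCODE, Rpl27 begins at position 101442298, beyond its window, so none of its printed bases lie in the annotated gene. Rpl7a (26910764), Rps6 (86857412) and, by the outer bound of the annotated gene, Rpl18 (45715457) begin upstream of their windows. The position of a run in these windows is thus relative to the RefSeq start only. A run of at least 10 pyrimidines was present in the 65 bases of 23 of 56 genes (41.1%), against 12.3% of all 27025 promoters of the table. On the transcribed strand of the same 65 bases, CTCTTTC was found in 6 genes (10.7%, against 0.840% of all promoters) and CTTTCC, which can overlap it, in 10 (17.9%, against 3.12%). Read from the GENCODE start of all 76 genes, 24 transcripts began with C (31.6%, against 17.6% of 12601 genes compared), and 37 had at least 6 pyrimidines in a row in their first 25 bases (48.7%, against 20.6%). These shares rest on 1 annotated transcript per gene. The start used in these cells was not measured, so they do not count the mRNAs that carry a TOP motif.

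Over the full promoters of 300 bases, searched on both strands, CCGGAAG, the core of ETS family sites, was present in 21 of 56 genes (37.5%), against 9.12% of all promoters. GGGCGG, the GC box, was present in 33 (58.9%, against 35.9%), and AAGATGG, the core of YY1 sites, in 8 (14.3%, against 6.48%). TATAAA on the transcribed strand was present in 5 genes (8.93%), close to the 8.88% of all promoters. These matches describe letters in the windows and are not evidence of binding or of use in these cells.

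Ribosomal protein mRNAs have many near-identical processed pseudogenes, so that short reads can be shared between copies. In 46 of the 76 genes, more than 50% of the 31-base words of the transcript also occur in another annotated gene. The 30 other genes had a median log2 ratio of 0.68, and the 46 genes one of 0.69. At least 1.5-fold higher in hypoxia were 28 of the 30 and 42 of the 46, against 8.46% of all genes compared. For Rpl34, the table also holds Rpl34-ps1 with 27.5, 28.2 and 31.8 CPM. Summed with it, Rpl34 was at 79.6, 129 and 129 CPM, 1.63-fold higher in hypoxia (1.53 to 1.73), so its place at the top of the group is lost when the reads of both are joined. Rps15a summed with Rps15a-ps6 had a ratio of 1.52 (1.45 to 1.59), Rpl31 with Rpl31-ps12 one of 1.61 (1.54 to 1.69) and Rpl14 with Rpl14-ps1 one of 1.55 (1.48 to 1.63).

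Setting hypoxia with T3 against hypoxia alone addresses what the hormone adds under low oxygen. The ribosomal protein genes differed very little between these libraries. Their summed CPM was 1.02-fold lower with T3 (1.01 to 1.02), and the median log2 ratio was -0.02 over the 76 genes and 0.01 over all genes compared. Counted at 1.5-fold were 0 of 76 in either direction, with 0.717% of all genes at least 1.5-fold higher and 0.276% at least 1.5-fold lower. At 2-fold it was again 0 of 76, with 0.126% of all genes higher and 0.063% lower. The log2 ratios ran from -0.12 to 0.06, 21 above 0 and 55 below. The interval lay below 1 for 17 genes, above 1 for 1 gene and held 1 for 58.

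The lowest ratio was that of Rps19, at 187 CPM in hypoxia and 172 with T3, 1.09-fold lower (1.04 to 1.14). Rps29 was at 214 and 199 CPM, 1.08-fold lower (1.03 to 1.12), Rplp2 at 165 and 153 CPM, 1.08-fold lower (1.02 to 1.13), and Rpl36 at 104 and 97.5 CPM, 1.07-fold lower (1.01 to 1.14). Rps24, another Diamond-Blackfan anaemia gene, was the gene whose interval lay above 1, at 335 and 349 CPM and 1.04-fold higher (1.01 to 1.08). Rpl36a at 90.7 and 93.9 CPM and Rpl23a at 314 and 325 CPM were also among the highest, each with an interval that held 1. Of the 14 head proteins of the small subunit, 13 were below 0 with a median log2 ratio of -0.06, and the 3 stalk genes were also all below 0. The largest of these differences is under 10%, and no replicate shows how far 2 cultures of the same condition would differ. The hypoxia over control ratio contains the same hypoxia library, with opposite sign. For hypoxia with T3 over control, which does not contain it, the medians were 0.66 for the head, 0.67 for the stalk and 0.66 for all 76.

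Hypoxia with T3 was also set against control. This comparison shares the control library with the first one and the hypoxia with T3 library with the second, so it is not independent of either. The ribosomal protein genes were 1.59-fold higher in sum (1.58 to 1.60), with a median log2 ratio of 0.66 against 0.08 for all genes compared. At least 1.5-fold higher were 73 of 76 and 0 were lower, against 8.73% of all genes higher and 13.1% lower. At 2-fold 0 of 76 were called, against 2.06% of all genes higher and 4.59% lower. The interval of each of the 76 lay above 1, and 62 held the pooled factor. With the libraries scaled to the same sum 3 of 76 passed 1.5-fold, a share near the 3.93% of all genes that did so under that scaling, though all 76 stayed above 0. With median-of-ratios size factors 36 passed, against 5.95% of all genes, and with TMM factors computed anew 27 passed, against 5.65%.

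At the top were Rpl34, 1.86-fold (1.73 to 2.0), Rpl18, 1.75-fold (1.66 to 1.84), Rpl37, at 72.5 CPM in control and 126 with T3 and 1.73-fold (1.63 to 1.84), and Rpl7a, 1.72-fold (1.66 to 1.78). At the bottom were Rpl3, 1.42-fold (1.38 to 1.46), Rpl27, 1.48-fold (1.40 to 1.56), Rps6, 1.49-fold (1.44 to 1.55), and Rpl23, 1.51-fold (1.45 to 1.57). Each of these 8 was above control in both hypoxic libraries.

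The 76 genes are short. The annotated span of the principal transcript was 0.828 to 11.8 kb with a median of 3.02 kb, against a median of 23.3 kb for 12601 genes compared, and 75 of 76 were under 10 kb. Transcripts had a median of 795 bases in 5 exons, against 3053 bases in 9 exons. They lie on 19 chromosomes, 4 of them on the X, and 29 hold annotated small nucleolar RNA genes within their span, 56 in all and 5 in Rpl4, the highest number. Genes with such an RNA and genes without had median log2 ratios of 0.70 and 0.68 for hypoxia over control.

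Over all genes compared, short genes had higher hypoxia over control ratios than long ones, with a Spearman correlation of -0.51 between log2 ratio and span across 12601 genes, which share the same 2 libraries and are not independent replicates. Other genes under 10 kb (3212 genes) had a median log2 ratio of 0.31, and 19.2% of them were at least 1.5-fold higher. Other genes under 10 kb with a mean level in the range of the 76, from 79.0 to 673 CPM, numbered 444 and had a median of 0.49, with 150 of them (33.8%) at least 1.5-fold higher. Of the ribosomal protein genes under 10 kb, 70 of 75 were at least 1.5-fold higher, with a median of 0.69. Span and level were thus associated with the ratio over all genes. The ribosomal protein genes had higher values than other genes under 10 kb in the same range of level, without closer matching of span and level together. From 2 to 5 kb, at any level, 55 ribosomal protein genes had a median of 0.68 and 1194 other genes one of 0.33. The part of span in the difference of the 76 was not tested.

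**Figure D3:**
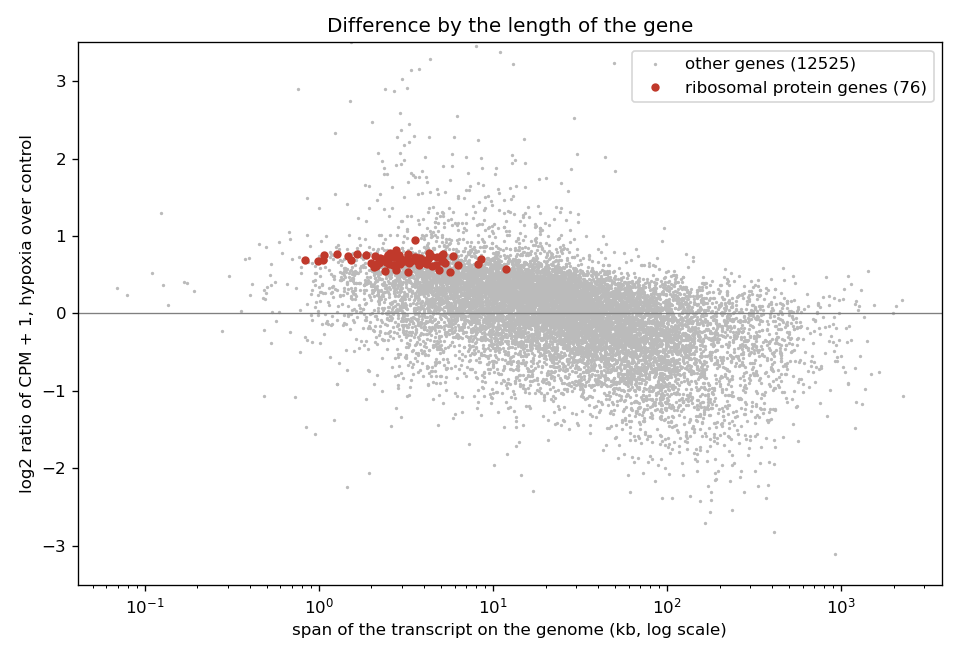
Log2 ratio of hypoxia over control (CPM with 1 CPM added) against the span of the principal transcript (kb, log axis), 1 point per gene, with the 76 ribosomal protein genes marked over the other genes compared. 15 genes lie outside the plotted range; the marked genes form a tight group at short spans with a median of 0.69, above the median of 0.31 for other genes under 10 kb.

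Within the 76 genes, the GC content of the transcript, from 41.3 to 60.8% with a median of 51.1%, had a Spearman correlation of 0.39 with the log2 ratio of hypoxia over control and of -0.38 with that of hypoxia with T3 over hypoxia (n = 76 genes that share the same libraries). Both ratios contain the hypoxia library, with opposite sign. For hypoxia with T3 over control, which does not contain it, the correlation was 0.14. Transcript length and the share of words found in other genes had weaker correlations with the hypoxia over control ratio, -0.15 and 0.06.

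Rps3a1 and Fau, which the symbol rule leaves out, had values like those of the 76. Fau, whose product yields Rps30, was at 78.1, 137 and 132 CPM, 1.76-fold higher in hypoxia (1.65 to 1.87). Rps3a1 was at 239, 390 and 391 CPM with a ratio of 1.63 (1.57 to 1.69). The paralogs were at lower levels and mostly at lower ratios. Rpl22l1 was at 17.2, 27.0 and 27.6 CPM, 1.56-fold higher (1.36 to 1.79), beside 1.56 for Rpl22. Rpl36al had a ratio of 1.40 (1.27 to 1.54), Rps4l one of 1.39 (1.15 to 1.67), Rpl7l1 one of 1.26 (1.15 to 1.38) and Rps27l, a p53 target, one of 1.24 (1.02 to 1.51). Rpl3l, Rpl10l and Rpl39l, paralogs of muscle and testis, had at most 3 reads in any library.

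Other mRNAs with a TOP motif had a median near that of the ribosomal protein genes, with a wider range. All 17 compared were above 0 in hypoxia over control, with a median log2 ratio of 0.61, from 0.16 to 0.73. At least 1.5-fold higher were 10 (58.8%), against 92.1% of the ribosomal protein genes and 8.46% of all genes. Gnb2l1, the ribosome-bound scaffold also named Rack1, was at 232, 387 and 373 CPM with a ratio of 1.67 (1.61 to 1.73). Eef1a1, the factor that delivers aminoacyl-tRNA, was at 2641, 4259 and 4350 CPM with a ratio of 1.61 (1.60 to 1.63). Tpt1, at 426, 685 and 695 CPM, had a ratio of 1.61 (1.57 to 1.65) and Pabpc1, the poly(A)-binding protein, at 507, 812 and 810 CPM, one of 1.60 (1.56 to 1.64). The list was not uniform: Hnrnpa1 was at 325, 452 and 363 CPM, so that the library with T3 was 1.25-fold below hypoxia (1.21 to 1.29). Elongation and termination factors, a list that shares genes with the TOP list, had a median of 0.49 with 4 of 11 at least 1.5-fold higher (36.4%). Factors that bind ribosomes or nascent chains had a median of 0.41 with 4 of 11 at least 1.5-fold higher (36.4%). These were Gnb2l1, Zfp622 with a ratio of 1.91 (1.73 to 2.10), Eif6, which keeps the subunits apart, with 1.59 (1.44 to 1.76) and Btf3 with 1.51 (1.44 to 1.58).

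The machinery that builds ribosomes was less uniformly high than the ribosomal proteins. Of 72 biogenesis factors compared, 8 were at least 1.5-fold higher (11.1%, near the 8.46% of all genes) and 4 lower (13.8% of all genes were lower), with a median log2 ratio of 0.28 against 0.05 over all genes. Nop56, a core protein of box C/D small nucleolar particles, was at 69.7, 129 and 134 CPM with a ratio of 1.85 (1.73 to 1.97). The endonuclease gene Nob1 had a ratio of 1.81 (1.61 to 2.04) and Gnl3, the nucleolar GTPase nucleostemin, one of 1.79 (1.58 to 2.03). Nol10 was at 22.1, 9.61 and 6.85 CPM, 2.30-fold lower in hypoxia (1.93 to 2.75). Of 15 genes of the RNA polymerase I machinery 4 were at least 1.5-fold higher (26.7%) and 0 lower, with a median of 0.10. They were Taf1d with a ratio of 2.58 (2.24 to 2.99), Znrd1 with 2.39 (1.89 to 3.06), Polr1c with 2.08 (1.84 to 2.37) and Cd3eap with 1.54 (1.33 to 1.78). Of 14 chaperones and 5S particle assembly genes, 2 were at least 1.5-fold higher (14.3%, against 8.46% of all genes). These were Pdcd2 with a ratio of 1.71 (1.39 to 2.11) and Aamp with 1.59 (1.5 to 1.69).

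Among 22 genes of the mTORC1 pathway and regulators of TOP mRNAs the median log2 ratio was -0.04, with 3 at least 1.5-fold higher (13.6%) and 2 lower, against 8.46% and 13.8% of all genes. Ddit4, an inhibitor of mTORC1 known to respond to low oxygen, was at 56.9, 242 and 246 CPM with a ratio of 4.26 (4.0 to 4.54), and Sesn2, another inhibitor, at 18.4, 63.7 and 60.6 CPM with a ratio of 3.47 (3.09 to 3.90). Sesn1 was 1.77-fold lower (1.51 to 2.07), and Larp4, an RNA-binding protein that stabilises ribosomal protein mRNAs, 1.69-fold lower (1.53 to 1.86). Of 11 Myc family and ribosomal stress genes 3 passed 1.5-fold, all higher (27.3%, against 8.46% of all genes). Myc, a transcription factor with many ribosomal targets, was at 34.0, 67.3 and 67.5 CPM with a ratio of 1.98 (1.81 to 2.17).

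**Figure D4:**
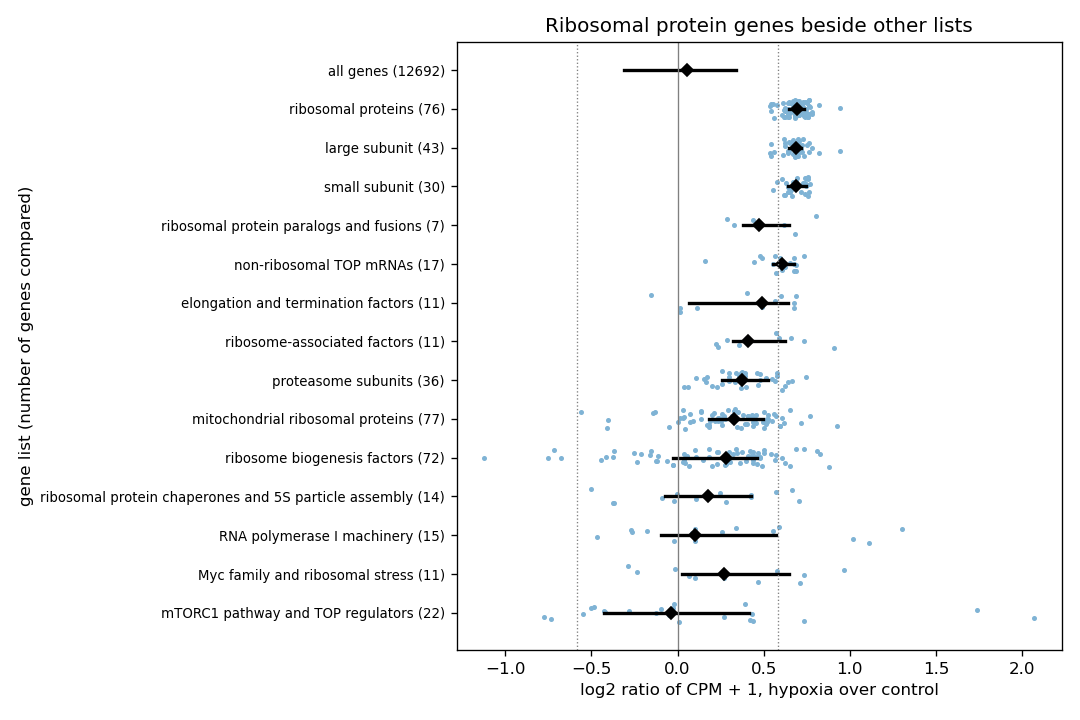
Log2 ratios of hypoxia over control (CPM with 1 CPM added) for the ribosomal protein genes, the companion gene lists and all genes compared, 1 library per group; points are genes, diamonds medians, bars the middle 50% of genes, and dotted lines mark 1.5-fold. The ribosomal protein genes sit between 0.54 and 0.95 with a median of 0.69, and the mitochondrial ribosomal protein and proteasome lists are lower and wider.

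A pair of protein complexes outside the cytosolic ribosome serve as comparison. The 77 mitochondrial ribosomal protein genes had a median log2 ratio of 0.33 with a middle spread of 0.31, and 8 of 77 were at least 1.5-fold higher (10.4%, near the 8.46% of all genes). The 36 proteasome subunit genes compared had a median of 0.37 with a middle spread of 0.26, and 5 were at least 1.5-fold higher (13.9%). Both medians were above the all-gene median of 0.05 and below that of the ribosomal protein genes, and both spreads were wider. Mitochondrial ribosomal protein genes took 0.173, 0.195 and 0.192% of reads, where cytosolic ones took 1.51, 2.16 and 2.10%. Rn45s, the annotated precursor of ribosomal RNA, took 0.310, 0.541 and 0.903% of reads, 2598, 5119 and 8649 CPM. It thus moved with the ribosomal protein genes between control and hypoxia, and apart from them between hypoxia and hypoxia with T3. What it holds depends on how ribosomal RNA was removed, which the labels do not state, and its part in these results was not tested.

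The authors' deposited tables set each hypoxic library against control for 13152 genes, all 76 ribosomal protein genes included. In the authors' deposited table for hypoxia over control, the folds of the 76 ran from 1.39 to 1.86 with a median of 1.55, and 0 of 76 had a false discovery rate or a p-value under 0.05, the lowest p-value being 0.147. In the authors' deposited table for hypoxia with T3 over control, the folds ran from 1.35 to 1.77 with a median of 1.51, with 0 of 76 under either threshold and a lowest p-value of 0.182. Over all genes, the authors' deposited tables hold 85 and 104 genes with a false discovery rate under 0.05. The test behind these values is not given in the sources used here.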

How the data were processed

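RNA of cultured neurons was sequenced from 3 strand-specific libraries (KAPA kit), 1 per group, per the labels' protocols. Per the submitters' processing notes, bcl2fastq 2.17, Bowtie2 2.1.0, RSEM 1.2.15 and the build mm10 were used, with no role given. How reads were counted, and whether strand was used, is not given in the sources used here. The authors deposited CPM values, normalised with TMM per the name of the table, and 2 tables with signal columns on another scale, which were not used, and with p-values, false discovery rates and a fold of each hypoxic library over control, a signed score written as minus the inverse where below 1.

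Divided by the CPM that 1 read is worth in its library, all values (100%) came out whole within 0.01, so reads were recovered. That worth was 0.0463 CPM in control, 0.0552 in the hypoxia library and 0.0425 with T3. With 1 library per group no test over samples and no count test could be fitted. Log2 ratios were taken with 1 CPM added over the 12692 genes whose mean reached 1 CPM, and a gene was called at 1.5-fold (second rule 2-fold). Printed folds are CPM ratios with nothing added, with 95% intervals (exact, Clopper-Pearson) from the split of a gene's reads between the libraries. Coordinates, span, length and GC content come from GENCODE M21 on GRCm38, the assembly of mm10, for the principal transcript, and promoters from RefSeq on GRCm38.p6. The members and gene lists were chosen with earlier results of these data known. Named genes were the 8 highest and 8 lowest members for hypoxia over control, the 4 highest and 4 lowest for the other comparisons, the 5 highest and 5 lowest per kb, 14 fixed members, the paralogs, and up to 4 genes of each companion list. A few genes under this rule are neither reported nor plotted by name here. Added values, filters, scalings, pseudogene sums and shared words were varied. The steps were tested on simulated data. R 4.3.3 with edgeR 4.0.16 was used for TMM factors only, and Python 3.11.15 with numpy 2.4.6, pandas 2.3.3, matplotlib 3.10.9 and scipy 1.17.1 for the rest.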

Additional observations from a re-analysis of the deposited data

How the results depend on the processing

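No paired analysis was possible because each group has 1 library and no result comes from a test. For the same reason no library could be left out. Over 10 alternatives, every ribosomal protein gene kept a ratio above 0 in hypoxia over control and in hypoxia with T3 over control, and 0 of them were 1.5-fold lower in any comparison. One alternative, adding ribosomal protein genes with other symbols to the members, was chosen after seeing the data. The size depended on scaling. The median log2 ratio of hypoxia over control was 0.67 with 5 CPM added, 0.52 with libraries scaled to the same sum, 0.63 with median-of-ratios size factors, 0.61 with TMM computed anew and 0.68 without members sharing over 50% of their words. The count at least 1.5-fold higher was 11 with the same sum (4.01% of all genes), 58 with size factors (6.49%) and 47 with TMM anew (5.86%). For hypoxia with T3 over control these medians were 0.65 with 5 CPM added, 0.47 with the same sum, 0.58 with size factors and 0.57 with TMM anew, and the counts 3, 36 and 27 for the last 3 (3.93, 5.95 and 5.65% of all genes). For hypoxia with T3 over hypoxia the median was -0.040 with the same sum, -0.042 with size factors and -0.030 with TMM anew. The distance of the median to the all-gene median, 0.64 for hypoxia over control and 0.59 for hypoxia with T3 over control, was 0.62 and 0.57 with the same sum, 0.58 and 0.53 over genes whose mean reached 10 CPM, and 0.69 and 0.66 with no filter. Of the genes compared, 1074 were 1.5-fold higher and 1754 lower in hypoxia, against 681 and 1109 with 5 CPM added and 505 and 2412 with the same sum. For hypoxia with T3 over control 1108 and 1663 became 686 and 1024, and 496 and 2382. The share of reads was 1.53, 2.18 and 2.12% with genes named as pseudogenes added, and 2.17 and 2.12% in the hypoxic libraries without Rn45s in the denominator. With at least 1124 reads per gene, depth sets a counting error of a few percent, and the spread between cultures is unknown.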
